A study of Caenorhabditis elegans with 4 samples.

Results

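The arms of chromosomes II, III, IV and V held 257 of the 1082 UNC-39 peaks in the combined list of a ChIP-seq experiment on L2 larvae of the nematode Caenorhabditis elegans. ChIP-seq maps the DNA a protein occupies by capturing the protein with an antibody and sequencing the DNA fixed to it. A peak counted as an arm peak when its midpoint lay outside the central 50% of its chromosome, and the 260 peaks inside that block on the same 4 chromosomes were the centre peaks. The membership rule used position alone, and all widths were kept. Each peak has a q value, the peak caller's corrected p-value, and a peak of lower q is called stronger here. The left arm is the end with the lower coordinates. On genome build WS180 the left arms ended at 3787681 on II, 3366339 on III, 4319668 on IV and 5196234 on V. The right arms began at 11363046 on II, 10099022 on III, 12959007 on IV and 15588706 on V.

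Every sample, the input controls included, came from whole L2 hermaphrodites of strain OP186 grown at 20 °C. The strain has the unc119(ed3) mutation and carries the transgene wgIs186, introduced by bombardment, which holds unc39 with a C-terminal tag of TY1, EGFP and FLAG together with unc119. The labels name no change to the worm's own unc-39 gene, and whole animals do not show in which cells a site was bound. The ChIP group had 2 libraries, pulled down with a goat antibody against GFP, and the input group had 2. Peak lists were analysed for the ChIP libraries and for the combined set, with 9 arm peaks among 41 in replicate 1 and 260 among 1077 in replicate 2. Values of the input libraries were not analysed here, and no strain without the tag is among the samples used here. The labels do not say that the replicates came from separate cultures. Read depth was unknown, so no peak carries a read count or a counting interval.

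UNC-39 is a homeodomain transcription factor of the sine oculis family that is needed for the migration of certain neurons and for normal mesoderm development in this nematode. The autosomes of C. elegans have a central region of low meiotic recombination, and arms where recombination is frequent. The arms are richer in repeated DNA and in histone H3 lysine 9 methylation and touch the nuclear periphery more than the centres, which hold more of the conserved and essential genes. The chromosomes are holocentric, so the word arm here names a stretch of the chromosome and not a side of a centromere.

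The arms as a whole held about the number of peaks that their length would give. They had 257 of the 517 peaks on II to V (49.7%, 95% exact interval 45.3 to 54.1%) on 50% of the extent (two-sided exact binomial test, p = 0.93). The furthest peak end of any list stood for the chromosome end. As the true ends lie at or beyond it, the right arms are measured short by an unknown length, while the left arms are counted from the first base. Merging peaks with at most 1000 bp between them left 250 arm sites, 99 on left arms and 151 on right arms.

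The 2 ends of a chromosome did not hold equal numbers of peaks. Left arms held 101 peaks and right arms 156, a left share of 39.3% (95% exact interval 33.3 to 45.6%) against 50% of the arm extent (two-sided exact binomial test, p = 0.000725). Counted once per occupied 100 kb window, the left share was 45.7% and the call was lost (exact binomial test, p = 0.307). Chromosome II had 20 peaks on its left arm and 40 on its right arm. Chromosome III had 20 and 41, left arm first. Chromosome V had 32 on its left arm and 60 on its right arm. Chromosome IV ran the other way, with 29 peaks on its left arm and 15 on its right arm.

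**Figure D1:**
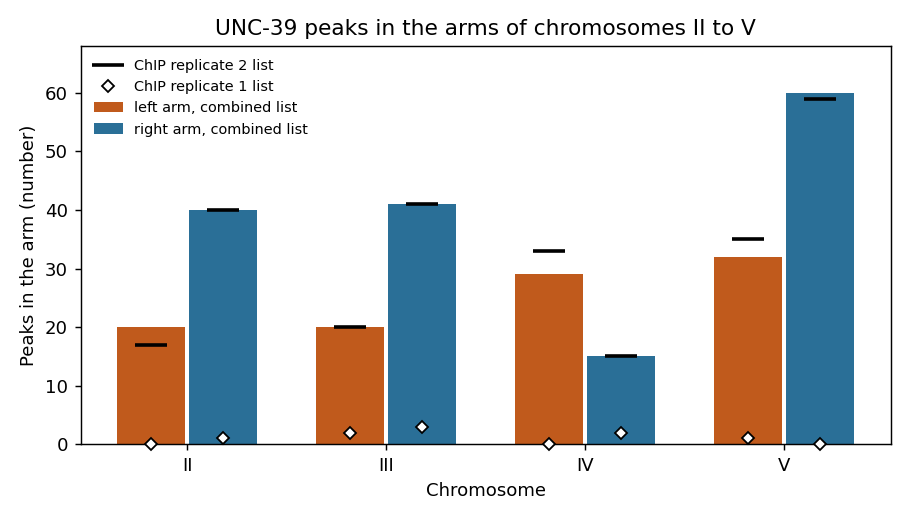
Number of peaks in the left and right arm of chromosomes II to V. Bars are the combined list, black dashes the ChIP replicate 2 list and white diamonds the ChIP replicate 1 list. On II, III and V the left-arm bar (20, 20 and 32 peaks) stands below the right-arm bar (40, 41 and 60), and on IV the left-arm bar (29) stands above the right-arm bar (15).

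Within each chromosome the left share was 33.3% on II (95% exact interval 21.7 to 46.7%), 32.8% on III (21.3 to 46.0%), 65.9% on IV (50.1 to 79.5%) and 34.8% on V (25.1 to 45.4%). Each departed from an even split in a two-sided exact binomial test, with adjusted p = 0.018 for II, III and V and 0.0488 for IV over the 4 chromosomes, a test chosen after the counts were seen. The left shares were not equal among the 4 chromosomes (Fisher-Freeman-Halton exact test, p = 0.00154), in a test also chosen after the counts were seen. In replicate 2 alone the counts were 17 left and 40 right on II, 20 and 41 on III, 33 and 15 on IV, and 35 and 59 on V (Fisher-Freeman-Halton exact test, p = 0.000157). The combined list was close to replicate 2, so this is not a separate measurement. Replicate 1 had 3 left-arm and 6 right-arm peaks, a left share that did not pass the test against an even split (two-sided exact binomial test, p = 0.508). So few peaks could pass only at an extreme split, so this test cannot decide the question.

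Tested one by one against its share of the arm extent, each of 3 arms differed after adjustment over the 8 arms. The right arm of III held 41 peaks, 1.58 times its expected number (two-sided exact binomial test, adjusted p = 0.00933), at 12.2 peaks per Mb. The right arm of V held 60, 1.5 times the expected number (adjusted p = 0.00417 in the same exact test), at 11.5 per Mb. The right arm of IV held 15, 0.45 times the expected number (adjusted p = 0.00214 in the same exact test), at 3.47 per Mb. The right arm of II had 10.6 peaks per Mb and did not pass (adjusted p = 0.0773, same exact test). The 4 left arms lay between 5.28 per Mb on II and 6.71 per Mb on IV, and none passed (adjusted p between 0.122 and 0.515, same exact test).

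Where peaks occurred, left arms together held fewer of them per window than right arms together. Each arm was divided into windows of 100 kb, a division chosen after the counts were seen. Left arms had a peak in 74 of 168 windows (44.0%) and right arms in 88 of 168 (52.4%). Occupied windows held 1.36 peaks on left arms and 1.77 on right arms. Windows with 3 or more peaks numbered 4 on left arms, with 13 peaks in them, and 19 on right arms, with 73 peaks. On V the left arm had 22 of 52 windows occupied at 1.45 peaks each, and the right arm had 26 of 52 at 2.31 each. On II the left arm had 16 of 38 windows occupied at 1.25 peaks each, and the right arm had 25 of 38 at 1.6 each. On III the left arm had 13 of 34 windows occupied and the right arm 24 of 34. Chromosome IV again ran the other way, with 23 of 44 windows occupied at 1.26 peaks each on the left arm and 13 of 44 at 1.15 each on the right arm. Neighbouring peaks entered the counts by arm above as separate events.

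**Figure D2:**
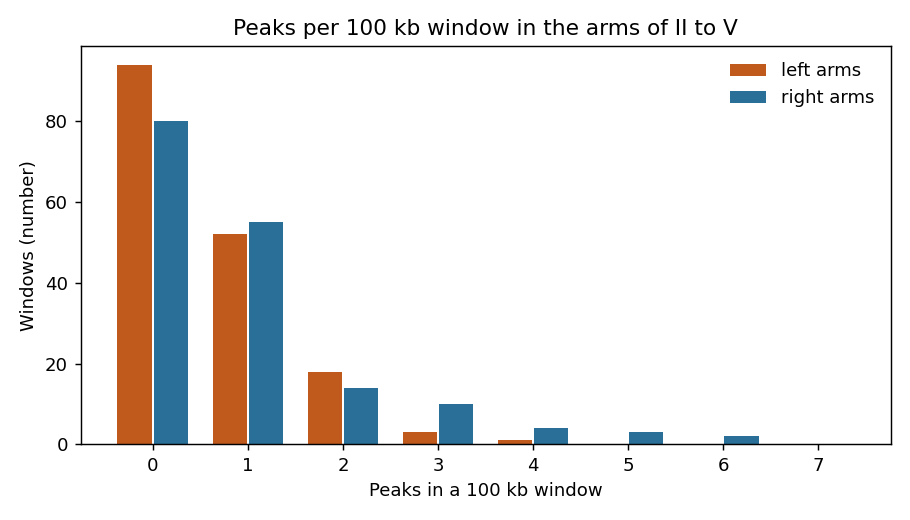
Number of 100 kb windows (vertical axis) that hold a given number of combined peaks (horizontal axis), for the left arms and the right arms of II to V together, 168 windows each. Left arms have 94 empty windows and right arms 80, and windows with 5 or 6 peaks occur on right arms (5 windows) and on no left arm.

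The densest stretch of any arm, counted in 250 kb from each peak, lay on the right arm of V, where 14 of the arm's 60 peaks fell between 18506415 and 18756445. All 14 were found in replicate 2, beside 96.0% of all combined peaks, and none in replicate 1, beside 3.70%. At 1000 bp or more were 8 of the 14, beside 5.55% of all combined peaks. The 14 covered 17527 bp, 42.6% of the length covered by peaks on that arm. Most of them were weak, since 11 of the 14 were outside the 541 combined peaks of lowest q, which are 50.0% of the list. The strongest of them was V 18637641 to 18640549 (2909 bp, q = 2.42e-12), which ranked 54 in the whole list. The second densest stretch was on the right arm of II, with 9 of its 40 peaks between 11617693 and 11774259, near the boundary with the centre. There 8 of the 9 were among the 541 of lowest q, and 1 was found in replicate 1.

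Position within the arms showed no detectable excess toward the chromosome ends. The outer 50% of the arms held 133 of the 257 peaks (51.8%, 95% exact interval 45.5 to 58.0%, two-sided exact binomial test against 50%, p = 0.618). The outer 50% of the right arm of V held 49 of its 60 peaks, and no other arm had more than 50% there. On right arms the outer counts were 16 of 40 on II, 19 of 41 on III and 7 of 15 on IV. On left arms they were 7 of 20 on II, 10 of 20 on III, 14 of 29 on IV and 11 of 32 on V. The pooled share therefore depended on the right arm of V. In steps of 20% of the arm from the outer end inward, the right arm of V had 12, 26, 12, 7 and 3 peaks. Left arms together had 19, 16, 22, 25 and 19, and right arms together had 36, 38, 30, 21 and 31. These counts were not tested.

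**Figure D3:**
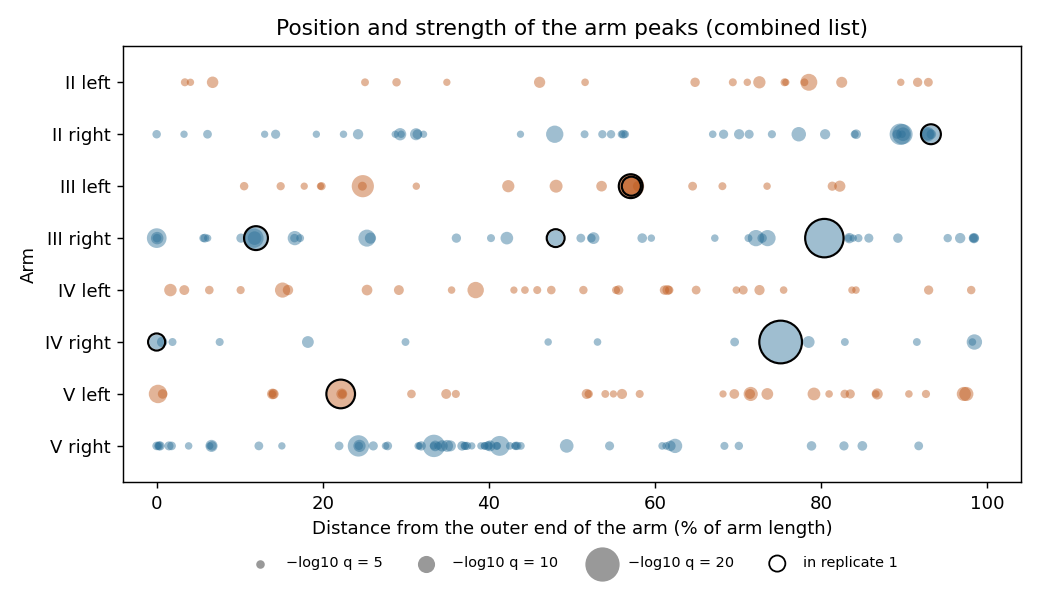
Position of each of the 257 arm peaks, as the distance of its midpoint from the outer end of the arm in percent of the arm's length (horizontal axis), in 1 row for each arm. Circle area grows with the square of −log10 q, and black rings mark the 9 peaks that overlap a replicate 1 peak. The right arm of V has 26 of its 60 peaks between 20 and 40%, and the largest circle is the IV right-arm peak at 75.1%.

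Several arm peaks lay at the very ends of the peak lists' range. The leftmost on V was V 8536 to 9239 (704 bp, q = 1.63e-11), whose midpoint is 8.89 kb from the first base of the chromosome. The last on IV was IV 17278346 to 17278672 (327 bp, q = 3.34e-09), which was also found in replicate 1. The last on III was III 13464375 to 13465361 (987 bp, q = 3.22e-12). It formed a merged site of 2518 bp with the neighbouring peaks III 13462844 to 13463160 (q = 5.13e-08) and III 13463384 to 13464154 (q = 9.23e-06), the only arm site made of 3 peaks. The last peaks on II, at 15150267 to 15150727 (q = 1.12e-05), and on V, at 20784474 to 20784940 (q = 9.33e-06), were weaker. On right arms the outermost peak set the extent itself, so its closeness to the end is not a result. The outermost peaks of the remaining left arms were II 128924 to 128953, III 354219 to 355259 and IV 71808 to 71831.

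The strongest arm site was IV 14032493 to 14034570 on the right arm of IV, 2078 bp wide, with q = 4.45e-25 and rank 8 in the whole list. It stood alone, 146 kb from the nearest peak, on the arm with the fewest peaks. The second was III 10758970 to 10759406 on the right arm of III (437 bp, q = 1.56e-22, rank 9), 97.9 kb from its nearest neighbour. The third was V 1151280 to 1151964 on the left arm of V (685 bp, q = 1.30e-16, rank 24). 

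The 20 strongest arm peaks ranked between 8 and 95 in the whole list and were the arms' members among its 100 strongest, beside 9.24% of all combined peaks that these 100 make up. Of these, 7 lay on left arms and 13 on right arms. Chromosome III held 9, with 4 on the left arm and 5 on the right, beside 61 of the 257 arm peaks. Chromosomes II and V held 5 each and IV held 1. In the centres, III held 6 of the 18 peaks among the 100 strongest. The 20 strongest arm peaks had a median width of 960 bp, beside 301 bp for all combined peaks. Of them 7 were found in replicate 1, beside 3.70% of all combined peaks. In the whole list −log10 q and width rose together (Spearman correlation 0.484), so peaks picked by q are not a like match for all peaks. Median width and replicate 1 overlap were not summarised for the 18 centre peaks. The strongest of each remaining arm were V 19049333 to 19051209 on the right arm of V (1877 bp, q = 8.15e-14), III 1924717 to 1926831 on the left arm of III (2115 bp, q = 3.64e-15), II 11759266 to 11759525 on the right arm of II (260 bp, q = 2.96e-13), II 2973907 to 2974209 on the left arm of II (303 bp, q = 1.30e-10) and IV 1659062 to 1659402 on the left arm of IV (341 bp, q = 2.61e-10). The last of these, at rank 103, lay outside the 20.

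Others of the 20 came in close groups. On the left arm of III, 3 strong peaks lay within 6 kb: III 1920899 to 1921713 (q = 1.34e-13), III 1923308 to 1924501 (q = 1.58e-10) and III 1924717 to 1926831. The last 2 of these merged within 1000 bp. Another left-arm peak of III, at 835229 to 836230 (q = 1.09e-13), stood beside a weaker one. On the right arm of III, III 13062282 to 13062884 (q = 1.28e-13) and III 13070314 to 13071985 (q = 4.36e-12) flanked a weaker peak, and III 12612370 to 12613648 (q = 1.09e-10) lay further in. On the right arm of V, V 19521628 to 19523251 (q = 3.41e-13) lay within 10 kb of the widest arm peak, V 19513557 to 19517819 (4263 bp, q = 7.13e-08). On the right arm of II, II 11749294 to 11750226 (q = 1.36e-12) and II 11619638 to 11620362 (q = 4.48e-11) belonged to the dense stretch near the centre, and II 13334944 to 13335684 (q = 7.89e-11) stood apart.

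The share of strong peaks in the arms did not differ detectably from that in the centres. The 541 combined peaks of lowest q included 122 of 257 arm peaks (47.5%) and 123 of 260 centre peaks (47.3%), beside 50.0% of all combined peaks by construction. The difference was 0.16 percentage points (95% interval -8.38 to 8.71; Fisher's exact test, two-sided, p = 1 after adjustment over 6 such tests). Median −log10 q was 5.15 in the arms and 5.12 in the centres. Between the arms, 47 of 101 left-arm peaks (46.5%) and 75 of 156 right-arm peaks (48.1%) were among these 541, a difference of -1.54 points (95% interval -13.8 to 10.8, Fisher's exact test, adjusted p = 1). The lowest q was 4.45e-25 in the arms and 4.64e-27 in the centres.

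Median width was 310 bp in the arms and 303 bp in the centres, and mean width was 454 bp in the arms and 459 bp in the centres. Arm peaks covered 116.8 kb and centre peaks 119.4 kb. The widest peak was 4263 bp in the arms and 23627 bp in the centres. That centre peak, V 14364426 to 14388052, is part of the centres' 119.4 kb and raises their mean width, so the near match of means and totals depends on it. Peaks wider than the median of the whole list made up 134 of 257 arm peaks (52.1%) and 130 of 260 centre peaks (50.0%), beside 49.7% of all combined peaks (difference 2.14 points, 95% interval -6.44 to 10.7, Fisher's exact test, adjusted p = 1). Peaks of at least 1000 bp, a width chosen after the values were seen, made up 25 of 257 in the arms (9.73%) and 8 of 260 in the centres (3.08%), beside 5.55% of all combined peaks (difference 6.65 points; Fisher's exact test, two-sided, p = 0.00204). With chromosome V left out the counts were 11 of 165 in the arms and 1 of 167 in the centres (Fisher's exact test, p = 0.0028). After peaks within 1000 bp were merged they were 25 of 250 arm sites and 14 of 250 centre sites, which did not pass (Fisher's exact test, p = 0.0943).

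The wide arm peaks were unevenly placed. The right arm of V had 14 of the 25, III left had 4, IV right had 3, III right had 2, and II right and IV left had 1 each. All 25 were found in replicate 2 and 2 in replicate 1, close to the 96.0% and 3.70% of all combined peaks. Of the 25, 17 were among the 541 of lowest q, beside 50.0% of the whole list. With the right arm of V left out, 11 of 197 arm peaks (5.58%) were this wide. Beside the peaks already named, the 5 widest included V 18704935 to 18706881 (1947 bp), whose q of 3.95e-05 ranked 217 of the 257 in the arms. Left-arm peaks covered 35.3 kb at a mean width of 350 bp, and right-arm peaks covered 81.4 kb at a mean width of 522 bp. At the narrow end, 31 arm peaks (12.1%) were under 50 bp, beside 10.6% of all combined peaks, and 2 were a single base.

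**Figure D4:**
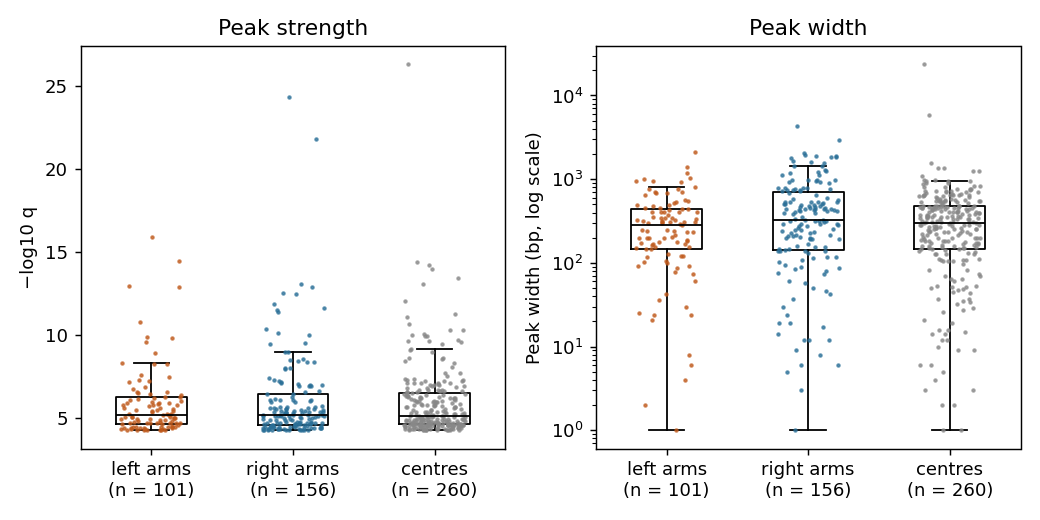
−log10 q (left panel) and width in bp on a log scale (right panel) of the peaks on left arms, right arms and centres of II to V. Boxes span the quartiles with the median as a line, whiskers reach the last value within 1.5 box lengths, and each dot is a peak. The boxes for strength sit at nearly the same height, and the upper quartile of width is 446 bp on left arms, 697 bp on right arms and 477 bp in centres.

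The share of peaks with a close neighbour did not differ detectably between the arms and the centres. Another combined peak lay under 5000 bp away, midpoint to midpoint, for 51 of 257 arm peaks (19.8%) and 41 of 260 centre peaks (15.8%), beside 22.7% of all combined peaks (difference 4.08 points, 95% interval -2.54 to 10.7, Fisher's exact test, adjusted p = 0.878). Within the arms, 13 of 101 left-arm peaks (12.9%) and 38 of 156 right-arm peaks (24.4%) had such a neighbour, which was not tested. The right arms of V, III and II had 17, 12 and 9 of these peaks, and neither arm of IV had any. In the arms, 6 merged sites joined more than 1 peak, 2 on left arms and 4 on right arms, and they took in 13 peaks. Merging lowered the count by 7 from 257 arm peaks, by 10 from 260 centre peaks and by 40 from all 1082 combined peaks.

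The replicates were compared for the arm sites. All 9 arm peaks of replicate 1 overlapped a replicate 2 peak and a combined peak by at least 1 bp. These made up 9 of 257 arm peaks (3.50%, 95% exact interval 1.61 to 6.54%) and 5 of 260 centre peaks (1.92%, 0.63 to 4.43%), beside 3.70% of all combined peaks. The difference of 1.58 points did not pass the test (95% interval -1.41 to 4.79, Fisher's exact test, adjusted p = 0.878). The shared sites comprised 3 of 101 left-arm peaks (2.97%) and 6 of 156 right-arm peaks (3.85%, Fisher's exact test, adjusted p = 1). Chromosome III held 5 of the 9, beside 61 of the 257 arm peaks. It also held 4 of the 5 centre peaks found in replicate 1.

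The strongest shared site, IV 14032493 to 14034570, had −log10 q of 11.2 in replicate 1 and 24.4 in replicate 2. It was 1650 bp wide in replicate 1, where it ranked first, and 2078 bp in replicate 2. III 10758970 to 10759406 had 8.55 in replicate 1 and 21.8 in replicate 2, and V 1151280 to 1151964 had 7.62 and 15.9, in the same order. All 9 had a lower q and were wider in replicate 2, whose whole list held 1077 peaks beside 41 in replicate 1. Shared peaks outside the arms were not compared in this way, so this is not a trait of the arms. The remaining 6 lay between 5.26 and 5.90 in replicate 1 and between 8.64 and 12.9 in replicate 2. They were III 13062282 to 13062884, III 1920899 to 1921713, II 11619638 to 11620362, III 1923308 to 1924501, III 11847932 to 11848346 and IV 17278346 to 17278672. The site III 11847932 to 11848346 was 44 bp wide in replicate 1 and 415 bp in replicate 2, the largest ratio of widths among the 9. Down to the weakest shared site, IV 17278346 to 17278672 at rank 140, there were 28 arm peaks. The 9 shared sites are all among the 28 by the choice of this limit, and the rest were not in the replicate 1 list. III 1924717 to 1926831, the fourth strongest arm peak, was not in the replicate 1 list, though the adjoining III 1923308 to 1924501 was.

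**Figure D5:**
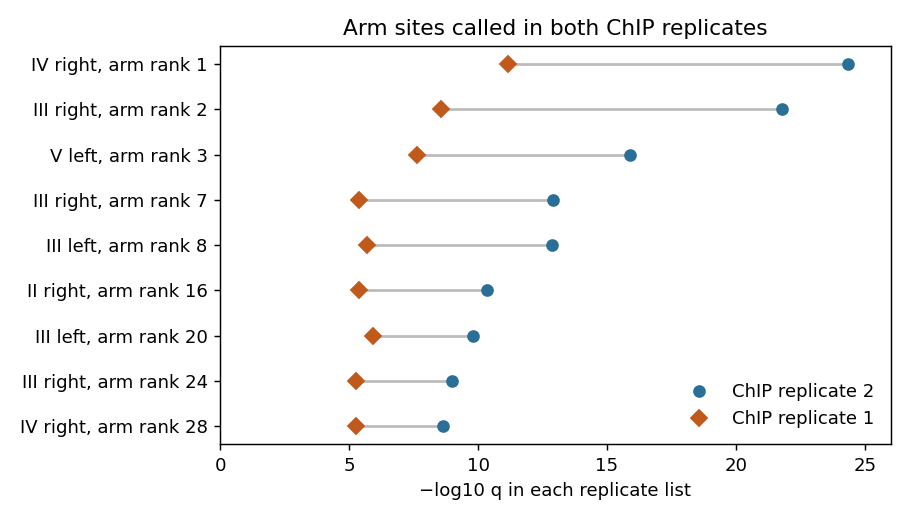
−log10 q of the 9 arm sites called in both ChIP replicates, in the replicate 2 list (circles) and the replicate 1 list (diamonds), with 1 site a row, named by chromosome, arm and rank among the 257 arm peaks. At each site −log10 q is higher in replicate 2, by 3.38 to 13.3 units.

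Replicate 2 accounted for most of the arm list. A replicate 2 peak overlapped 244 of 257 arm peaks (94.9%) and 246 of 260 centre peaks (94.6%), beside 96.0% of all combined peaks. The q value was identical to that of replicate 2 for 220 arm peaks (85.6%), beside 83.8% of all combined peaks. Both ends were identical for 205 arm peaks (79.8%), beside 76.5% of all combined peaks. The 13 arm peaks found in neither replicate list comprised 8 on left arms and 5 on right arms. The strongest of these was the outermost peak of the left arm of IV, IV 71808 to 71831 (24 bp, q = 5.13e-08, rank 198), followed by V 20441445 to 20441604 (160 bp, q = 8.47e-08). In the other direction, 244 of the 260 replicate 2 arm peaks overlapped a combined peak. Since the combined list may draw on the same reads, these shares were not tested.

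No combined peak crossed a boundary between arm and centre. The peaks nearest a boundary had q between 1.04e-09 and 1.16e-05 inside the arms and between 5.24e-09 and 5.85e-05 outside them. On II the nearest were II 3519002 to 3519182 inside the left arm and II 3903616 to 3903624 outside it, and II 11617693 to 11618198 inside the right arm and II 11288208 to 11288390 outside it. On III they were 2768513 to 2768949 inside the left arm and 3418356 to 3418830 outside, and 10151749 to 10151994 inside the right arm and 9881609 to 9881645 outside. On IV they were 4235916 to 4236260 inside the left arm and 4405747 to 4406412 outside, and 13025625 to 13026399 inside the right arm and 12849471 to 12849476 outside. On V they were 5064968 to 5065662 inside the left arm and 5777023 to 5777150 outside, and 16017739, a single base, inside the right arm and 15475420 to 15475584 outside.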

How the data were processed

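Per the labels' protocols, worms were fixed with 2% formaldehyde, 10% of each extract served as input, and the tagged protein was recovered with affinity-purified goat antibodies against GFP. Peaks were called with PeakSeq on WormBase WS180, per the file headers and source column. The deposited value of a peak is a q-value (a p-value adjusted for multiple testing) from the authors' caller. The sources used here do not name the aligner, the versions, the filters, the control or how the combined list was made, and read depth is unknown.

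Positions, widths and q-values of all peaks were analysed in Python 3.11.15, with SciPy 1.17.1 and statsmodels 0.14.6 for tests and intervals, pandas 2.3.3 and NumPy 2.4.6 for tables, and Matplotlib 3.10.9 for plots. Coordinates are 1-based. Shares carry 95% Clopper-Pearson intervals and differences of shares 95% Newcombe intervals. Counts against extent were tested by two-sided exact binomial tests, and arms against centres and left against right arms by 6 two-sided Fisher's exact tests with Benjamini-Hochberg adjustment. The left-share test, the overlap and the merging steps were tested on simulated peak lists with independently placed peaks. The overlap step was tried there on a list against itself. Such lists do not show how the left-share test behaves when neighbouring peaks occur together. Peaks are not replicates of an experiment, so these p-values describe the lists and not variation between worm populations. Intervals cover counting error over peaks only.

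Named peaks were the 20 arm peaks of lowest q, those in replicate 1, the strongest and outermost of each arm, the 5 widest, merged sites of 3 or more, and those beside each boundary. A few others, such as neighbours of these and peaks found in neither replicate, were named after their values were seen. Peaks were merged with at most 1000 bp between them, and 1 bp of overlap counted as shared. Alternatives changed the strength, width and merging limits, the size of the centre block, and the replicates or chromosomes included. The members and tests were chosen with earlier results of these data known. Genes and sequences were not used here, as no genome or annotation of WS180 was used.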

Additional observations from a re-analysis of the deposited data

Results flagged for a closer look

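The left share of arm peaks on chromosome IV was 65.9%, with 29 peaks on the left arm and 15 on the right, against 33.8% on II, III and V together, with 72 left-arm and 141 right-arm peaks. The difference was 32.1 percentage points (two-sided Fisher's exact test, p = 0.000142). It stood out because the arms of IV differed in the direction opposite to the other 3 chromosomes, and IV was singled out after the counts were seen. The test that singles out no chromosome gave p = 0.00154 (Fisher-Freeman-Halton exact test), and it too was chosen after the counts were seen.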

How the results depend on the processing

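Of 77 alternative values for 11 results, 52 kept both direction and side of the threshold, or stayed near the reported value. The 6 alternatives on windows, merging at 5000 bp, extent and peaks of at least 1000 bp were chosen after seeing the data. The excess of right-arm peaks passed with any single chromosome left out, among the 541 peaks of lowest q and after merging. It also passed with the extent taken from the first to the last peak (left share 40.2%, exact binomial test, p = 0.00213). It no longer passed when occupied 100 kb windows were counted (left share 45.7%, exact binomial test, p = 0.307), and the cause was not tested. Nor did it pass in replicate 1 alone (33.3% of 9 peaks), where the peaks are too few for the test to decide. Differences that did not pass changed sign in places, also with the cause not tested. The arm share was 40.04% against an expected 40% with the central 60% as centre, and 50.2% without IV. The outer 50% of the arms held 48.4% of the peaks of lower q. The arm minus centre difference in strong peaks was -1.29 points with 25% of the list taken as strong, -1.33 without peaks under 50 bp, -0.4 after merging and -4.10 with the central 60%. That in wide peaks was -5.30 points among peaks of lower q and -2.65 without peaks under 50 bp. At 1000 bp or more it passed without adjustment (6.65, and 6.07 without V), but not after merging within 1000 bp (4.4). The arm minus centre difference in close neighbours was -3.77 points at 2000 bp. With the central 60%, the left minus right difference was 2.34 points for strong peaks and 0.46 for replicate 1 overlap. Merging the 122 arm peaks of lower q left 119 sites. With either replicate left out, so that 1 list remained, the arm share was 50.5 to 60%, the left share 33.3 to 40.4%, the outer share 44.4 to 52.3%, the strong-peak difference between arms and centres -16.7 to -2.07 points and between left and right arms -2.64 to 0, merged sites 9 to 254, and arms that passed 0 to 4. No paired analysis was possible because the results come from peak lists and the input samples that share the replicate numbers have no values here.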
